A study of Mus musculus with 6 samples.

Results

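The genes described here encode SR proteins, heterogeneous nuclear ribonucleoproteins (hnRNPs), the SF3 complexes and the proteins of the spliceosomal small nuclear ribonucleoproteins (snRNPs). They were chosen by symbol, as every row whose name begins with Srsf and a digit, Hnrnp, Sf3a or Sf3b and a digit, or Snrp, and 52 of the 24421 symbols of the deposited table met that rule. By family there were 11 Srsf, 20 Hnrnp, 9 Sf3a or Sf3b and 12 Snrp genes. Both tissues came from female FVB/NJ mice aged 5 months, with 3 RNA libraries from mammary glands and 3 from mammary tumours. The gland donors carried Tg(LINK-A), a transgene for the long non-coding RNA LINK-A, and the tumours came from tumour-bearing MMTV-Tg(LINK-A) mice, so a LINK-A transgene is named for both groups and the mouse mammary tumour virus promoter, which drives expression mainly in mammary epithelium, only for the tumour donors. Gland and tumour therefore differ in tissue, cell make-up and transgene label at once, and these cannot be told apart. The labels do not say whether each library came from 1 animal or from a pool, so p-values measure the spread between these libraries.

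Introns are removed from pre-mRNA by the spliceosome, which is assembled anew on each intron from snRNPs and many other proteins. The U1 snRNP reads the start of the intron and the U2 snRNP, with its SF3a and SF3b complexes, binds the branch site. SR proteins and hnRNPs bind the pre-mRNA itself and, as a broad rule with many exceptions, SR proteins favour and hnRNPs disfavour the use of nearby sites. All 4 families are made in nearly every cell, and their mRNA levels do not measure splicing, which gene-level values cannot show.

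To show what lies upstream of genes that rose, 1 promoter stretch is printed per family, from RefSeq on GRCm38.p6. In each family it belongs to the gene with the smallest p among those that rose and had a single window whose upstream part was free of annotated exons. Each is 180 bases, read 5′ to 3′ on the gene's strand, with capitals marking a GC box (GGGCGG, or CCGCCC on the other strand) or a CCAAT box.

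Srsf9: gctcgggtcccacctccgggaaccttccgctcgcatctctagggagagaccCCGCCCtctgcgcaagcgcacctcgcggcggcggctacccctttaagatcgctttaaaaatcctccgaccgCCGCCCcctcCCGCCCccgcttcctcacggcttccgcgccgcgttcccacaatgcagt
Hnrnpab: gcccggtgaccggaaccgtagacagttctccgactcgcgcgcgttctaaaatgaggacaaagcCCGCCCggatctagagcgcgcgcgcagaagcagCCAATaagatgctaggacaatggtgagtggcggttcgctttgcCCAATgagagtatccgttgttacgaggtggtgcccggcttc
Sf3b1: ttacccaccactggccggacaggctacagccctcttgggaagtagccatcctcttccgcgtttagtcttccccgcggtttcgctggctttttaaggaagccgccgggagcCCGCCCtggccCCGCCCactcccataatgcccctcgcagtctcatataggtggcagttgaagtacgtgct
Snrpa1: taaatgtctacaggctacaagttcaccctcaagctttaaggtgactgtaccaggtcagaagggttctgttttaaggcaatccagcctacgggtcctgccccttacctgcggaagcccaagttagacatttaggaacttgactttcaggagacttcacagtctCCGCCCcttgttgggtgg

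The Srsf9 stretch is chr5:115326997-115327176 on the plus strand and holds 3 GC boxes, which begin 129, 58 and 48 bases before the RefSeq start. Upstream of Hnrnpab, chr11:51606882-51607061 on the minus strand holds 1 GC box and 2 CCAAT boxes, which begin 117, 84 and 41 bases before the start. For Sf3b1, chr1:55027482-55027661 on the minus strand holds 2 GC boxes, 73 and 62 bases before the start. Snrpa1 is shown by chr7:66060119-66060298 on the plus strand, with 1 GC box 55 bases before the RefSeq start. GENCODE also annotates Snrpa1 transcripts that begin farther upstream, from 66059003, so this stretch lies inside the annotated gene. Windows of 300 bases, from 250 before to 50 after a start, were found for 46 of the 52 genes, 63 windows in all.

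Of the 7 motifs searched on both strands, the GC box was in 68.3% of these 63 windows and in 35.7% of all 32851 mouse windows. The ETS motif CCGGAAG was in 33.3% against 8.86%, and CCAAT in 44.4% against 37.4%. For the E-box CACGTG the shares were 11.1% and 7.15%, for the NRF1 motif GCGCATGC 4.76% and 2.71%, for the YY1 motif AAGATGGCG 1.59% and 1.40%, and for TATAAA 11.1% and 13.6%. Of the 63 windows, 18 belong to genes that rose. Among these 18, 12 held a GC box, 5 the ETS motif and 6 CCAAT, beside 43, 21 and 28 of all 63. Counts for the E-box, NRF1 and YY1 motifs and TATAAA were 3, 0, 1 and 3, beside 7, 3, 1 and 7. The windows of the 46 genes also had a higher median GC content, 61.0% against 52.7%, and a median of 25 CG pairs against 7, and no share was corrected for this. The motifs and the printed genes were chosen with the values of the genes known, and a match is a description of letters, not a site in use.

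The deposited table names no unit, and its values were taken as FPKM, read fragments corrected for how long a transcript is and how many fragments were mapped per library, although another scaled unit would look alike. Their sums ran from 486080 to 582996 over the 6 libraries. Genes above 0 numbered 16218 to 16643 per gland and 15000 to 15749 per tumour, and the number of reads per library is unknown here. Fold changes are differences of mean log2(FPKM + 1), which understate the change of low genes. The test was limma's moderated test over the 13364 genes that averaged 1 FPKM or more, with Benjamini-Hochberg adjustment over all of them and a threshold of 0.05, and only genes past it are said to have risen or fallen. Gland 2 stood apart by its skeletal muscle genes, whose 8 markers summed to 12660 FPKM there, to 14.6 in gland 1, to 1149 in gland 3 and to between 5.86 and 28.9 in the tumours. Gland 2 also gave the lowest gland value for 41 of 51 tested genes of the 4 families, a place it held for 55.2% of all tested genes.

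Of the 52 genes 51 passed the filter, and Srsf12 did not. Among the 51, 21 rose in tumour, 0 fell by limma at the adjusted threshold, and 30 did not pass; at an unadjusted p under 0.05 the count of lower genes was also 0. That is 41.2% of the 51, beside 21.9% of all tested genes called higher and 23.1% called lower. The fold change was positive for 47 genes and negative for 4, with a median of 0.36 on the log2 scale and a range from -0.38 to 0.93. Over all tested genes the median was 0.01, with 6772 positive and 6592 negative values. All 3 tumour values lay above all 3 gland values for 36 of the 51, and below them for 1, Hnrnph3, against 29.3% and 29.0% of all tested genes.

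**Figure D1:**
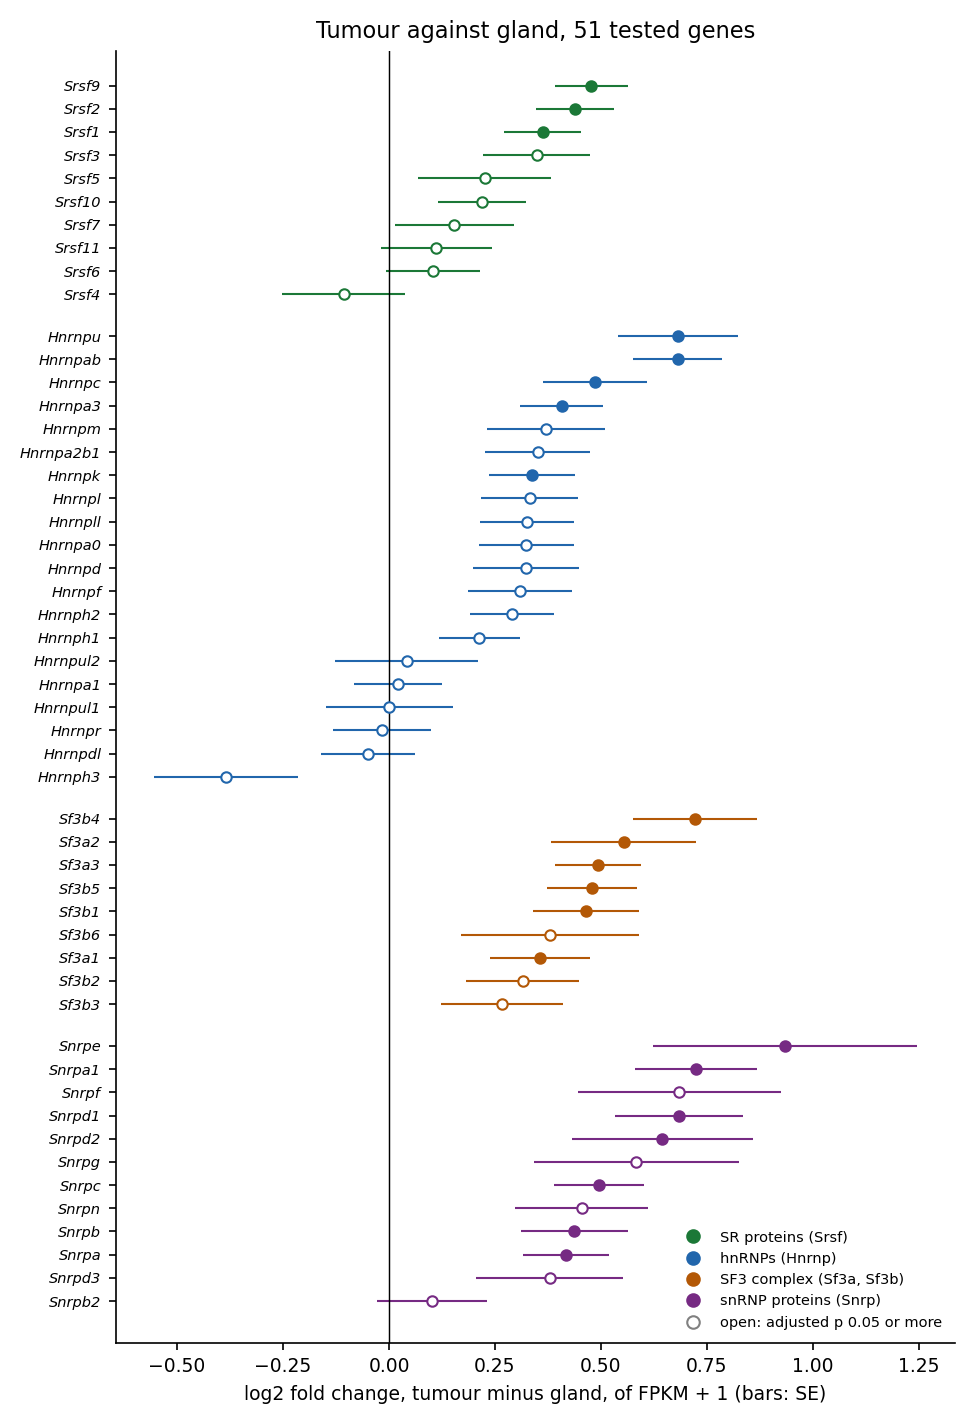
Log2 fold change of each of the 51 tested genes, tumour minus gland on log2(FPKM + 1), with its standard error as a bar. Filled points passed the adjusted threshold of 0.05, open points did not, and all 21 filled points lie to the right of 0.

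The count of 21 depended on single glands. It was 10 without gland 1, 14 without gland 2 (the muscle-rich library), 12 without gland 3, 24 without tumour 1, 13 without tumour 2 and 25 without tumour 3. As shares of the 51 these are 19.6%, 27.5%, 23.5%, 47.1%, 25.5% and 49.0%, and the shares of all tested genes called higher in the same fits were 16.0%, 16.9%, 15.4%, 21.9%, 15.9% and 23.1%. The distance between the genes of the 4 families and all genes was thus smaller without any 1 gland or tumour 2, and smallest without gland 1. Without glands 1 and 3 together, which leaves gland 2 as the only gland and assumes that it varies like the tumours, 0 of the 51 were called higher, beside 5.82% of all tested genes, and the median fold change of the 51 was 0.46. In all 6 fits with 1 library left out, 10 genes kept their call: Srsf2, Srsf9, Hnrnpab, Hnrnpu, Sf3a3, Sf3b4, Sf3b5, Snrpa1, Snrpc and Snrpd1. The other 11 lost it in at least 1.

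SR proteins have an RNA-binding domain and a tail rich in arginine and serine, through which they recruit spliceosome parts. Of 10 tested Srsf genes, 3 rose and 0 fell, with a median fold change of 0.22 on the log2 scale. The share that rose, 3 of 10, lay above the 21.9% of all tested genes called higher. The distance was smaller than for the Sf3 and Snrp genes, and rests on few genes. Summed over the family, the level was 694, 636 and 731 FPKM in glands 1 to 3 and 827, 813 and 854 in tumours 1 to 3. Every tumour sum lay above every gland sum, and the ratio of the means was 1.21. As a percent of each library's sum, the groups overlapped. The family held 0.1398, 0.1245 and 0.1443% in glands 1 to 3 and 0.1418, 0.1556 and 0.1757% in tumours 1 to 3.

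Srsf9, which acts in constitutive and alternative splicing, had the smallest p of the family. Its level was 42.6, 40.7 and 41.7 FPKM in the glands and 58.6, 59.1 and 57.3 FPKM in the tumours, with little spread inside either group. The fold change was 0.48 ± 0.09 (SE, n = 3 against 3), with an adjusted p of 0.00432 by limma. Srsf2, also called SC35 and a marker protein of nuclear speckles, was at 120.4, 114 and 122 FPKM in the glands and 157, 159.8 and 167 FPKM in the tumours. It rose by 0.44 ± 0.09, with an adjusted p of 0.00826 by limma, and the groups did not overlap. Srsf2 overlaps Mettl23 and Mfsd11 on the other strand, and without known strandedness reads there cannot be assigned.

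Srsf1, the SR protein first known as SF2/ASF, was at 47.8, 44.8 and 48.8 FPKM in the glands and 63.4, 58.9 and 60.4 FPKM in the tumours. It rose by 0.36 ± 0.09, with an adjusted p of 0.0169 by limma. The call was lost without any 1 gland, at adjusted p of 0.0612, 0.0534 and 0.0555 by limma without glands 1, 2 and 3, within a range of 0.00311 to 0.129 over its alternatives.

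The most abundant Srsf genes that did not pass were Srsf5, Srsf6 and Srsf3. Srsf5 had 169, 142 and 174 FPKM in the glands and 159.9, 185 and 227 FPKM in the tumours, which overlap. Srsf6 had 88.1, 87.7 and 97.6 FPKM against 108.5, 89.0 and 97.0 FPKM, also overlapping. Srsf3, the smallest SR protein, had 74.7, 68.9 and 82.4 FPKM against 109.4, 93.0 and 86.8 FPKM, without overlap, but its adjusted p was 0.0603 by limma, and 0.0305 without tumour 3, within a range of 0.00604 to 0.192 over its alternatives. The 1 negative value was that of Srsf4, -0.11 on the log2 scale, with groups that overlap and a sign that flips under other settings, as do those of Srsf6 and, among the Snrp genes, Snrpb2. Srsf12 was at 0.197, 0.276 and 0.214 FPKM in the glands and is listed at 0 in all 3 tumours, so no fold change is given.

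hnRNPs coat nascent transcripts and act in splicing, export, stability and translation of mRNA. Of 20 tested Hnrnp genes, 5 rose and 0 fell, with a median fold change of 0.32 on the log2 scale. The share that rose, 5 of 20, was near the 21.9% of all tested genes called higher. For 14 of the 20 the tumour values all lay above the gland values, an order found in 29.3% of all tested genes. The summed level was 1509, 1332 and 1497 FPKM in the glands and 1794, 1877 and 1945 FPKM in the tumours, with a ratio of means of 1.29.

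Hnrnpab, which binds RNA and single-stranded DNA, and Hnrnpu, a scaffold protein of the nuclear matrix and chromatin, had the largest changes. Hnrnpab was at 173, 152 and 162 FPKM in the glands and 252, 251 and 279 FPKM in the tumours, a mean of 162 ± 10.7 against 261 ± 15.9 (SD, n = 3). Its fold change was 0.68 ± 0.11 (SE), with an adjusted p of 0.00232 by limma. Hnrnpu was at 115, 92.8 and 109 FPKM in the glands and 145, 175 and 191 FPKM in the tumours. It rose by 0.68 ± 0.14, with an adjusted p of 0.0079 by limma, and in both genes every tumour exceeded every gland. Hnrnpab overlaps Phykpl on the other strand, and the transcript sequence they share may be that overlap itself. Hnrnpu overlaps Cox20 on the other strand, and reads in either overlap cannot be assigned.

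Hnrnpc, a protein that binds runs of U and shields cryptic sites, was at 96.7, 105 and 103 FPKM in the glands and 165, 136 and 129 FPKM in the tumours. It rose by 0.49 ± 0.12, with an adjusted p of 0.0166 by limma. Hnrnpa3 rose from 12.4, 13.7 and 13.0 FPKM to 17.7, 17.0 and 18.0 FPKM, with a fold change of 0.41 ± 0.10 and an adjusted p of 0.0141 by limma. Both lost the call without gland 1 (adjusted p of 0.0674 and 0.0673) or gland 3 (0.0592 and 0.0607), with ranges over the alternatives of 0.00264 to 0.241 for Hnrnpc and 0.00321 to 0.229 for Hnrnpa3, by limma. Hnrnpa3 has 27 near-identical copies in the annotation, 26 of them pseudogenes, so its level is uncertain.

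Hnrnpk, which binds C-rich RNA and DNA, was among the most abundant of the genes that rose, with 169.5, 153 and 177 FPKM in the glands and 213, 206 and 212 FPKM in the tumours. Its change was small, 0.34 ± 0.10, with an adjusted p of 0.0325 by limma. It lost the call without gland 1, gland 2, gland 3 or tumour 2, at adjusted p of 0.0947, 0.0991, 0.0693 and 0.0859 by limma, within a range of 0.00453 to 0.131 over its alternatives.

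A band of Hnrnp genes lay just outside the threshold. Hnrnpll, Hnrnph2, Hnrnpa0, Hnrnpl and Hnrnpa2b1 had adjusted p of 0.0506, 0.0511, 0.0513, 0.0516 and 0.055 by limma, with fold changes of 0.32, 0.29, 0.32, 0.33 and 0.35 and no overlap between the groups. Hnrnpa2b1, a reader of exon and intron motifs and the most abundant hnRNP gene here that did not pass, had 182, 157 and 174 FPKM in the glands and 193, 225 and 239 FPKM in the tumours. Without tumour 1 it passed, as did Hnrnpll and Hnrnpm, at adjusted p of 0.0203, 0.0296 and 0.0228 by limma, and Hnrnpl passed without tumour 3, at 0.0283. Over the alternatives their adjusted p ran from 0.0203 to 0.233 for Hnrnpa2b1, 0.012 to 0.316 for Hnrnpll, 0.00653 to 0.227 for Hnrnpm and 0.00413 to 0.156 for Hnrnpl, by limma.

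Other hnRNP genes had values near 0. Hnrnpa1, which silences exons, was at 19.9, 18.8 and 19.4 FPKM in the glands and 21.2, 19.9 and 17.9 FPKM in the tumours, and has 9 near-identical pseudogenes. Hnrnpul1, Hnrnpul2, Hnrnpr and Hnrnpdl also had fold changes within 0.05 of 0 on the log2 scale and groups that overlap, and the sign of these 5 changes under other settings. Hnrnph3, a relative of Hnrnph1 that binds runs of G, had the only groups of the 51 with every tumour below every gland, at 10.9, 10.1 and 10.4 FPKM against 6.18, 7.60 and 9.99 FPKM. Its value of -0.38 ± 0.17 did not pass, with an adjusted p of 0.108 by limma, and passed without tumour 3, at -0.55 and 0.0134, within a range of 0.0134 to 0.502 over its alternatives.

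The SF3a and SF3b complexes are parts of the U2 snRNP that hold it at the branch site. Of their 9 genes, 6 rose and 0 fell, all 9 values were positive, and the median fold change was 0.46 on the log2 scale. The 6 are 66.7% of the family, beside 21.9% of all tested genes called higher. The summed level was 376.5, 324 and 368 FPKM in the glands and 485, 484 and 493 FPKM in the tumours, with a ratio of means of 1.37. Tumour values lay above gland values for 7 of the 9, beside 29.3% of all tested genes.

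Sf3b4, an RNA-binding subunit that contacts pre-mRNA upstream of the branch site, had the largest change. It was at 28.5, 22.9 and 22.2 FPKM in the glands and 35.2, 42.2 and 45.8 FPKM in the tumours, with a fold change of 0.72 ± 0.15 (SE, n = 3 against 3) and an adjusted p of 0.00707 by limma. Sf3a3 was at 26.0, 22.9 and 22.3 FPKM against 34.1, 34.6 and 32.6 FPKM, a change of 0.49 ± 0.10 with an adjusted p of 0.00767 by limma. Sf3b5, a small structural subunit of SF3b, was at 60.9, 58.0 and 63.1 FPKM against 94.4, 82.1 and 78.9 FPKM, a change of 0.48 ± 0.11 with an adjusted p of 0.0103 by limma. In all 3 genes the groups were apart and the call held whichever library was left out.

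Sf3b1, the large subunit that clasps the branch site helix and is often mutated in human blood cancers, was at 47.9, 39.9 and 48.7 FPKM in the glands and 56.3, 64.4 and 68.6 FPKM in the tumours. It rose by 0.46 ± 0.13, with an adjusted p of 0.0222 by limma. Its call was lost without gland 1, gland 2 or tumour 2, at 0.0513, 0.063 and 0.0742, within a range of 0.00229 to 0.0976 over its alternatives. Sf3a2 and Sf3a1, the partners of Sf3a3 in SF3a, rose by 0.55 ± 0.17 and 0.36 ± 0.12, with adjusted p of 0.036 and 0.0458 by limma. Of the fits with 1 library left out, both kept the call in 1, without tumour 1, and without each of the other libraries their adjusted p ran from 0.0665 to 0.107 for Sf3a2 and from 0.0794 to 0.139 for Sf3a1; over all alternatives the ranges were 0.00414 to 0.166 and 0.00161 to 0.217. Sf3a2 overlaps Plekhj1 on the other strand.

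Sf3b2, Sf3b3 and Sf3b6 did not pass. Sf3b2 was at 71.5, 59.8 and 69.5 FPKM in the glands and 72.2, 85.3 and 93.8 FPKM in the tumours, with an adjusted p of 0.0933 by limma, and 0.0336 without tumour 1, within a range of 0.00389 to 0.308 over its alternatives. Sf3b6, the subunit that touches the branch site adenosine, was at 66.1, 57.5 and 67.0 FPKM against 114, 78.3 and 63.6 FPKM. Its tumours spanned both sides of the gland range, and its adjusted p was 0.18 by limma, and 0.0359 without tumour 3, within a range of 0.0141 to 0.398.

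The Snrp genes encode the Sm proteins, which form a ring on U1, U2, U4 and U5 snRNA, and proteins particular to U1 or U2. Of 12 tested, 7 rose and 0 fell, all 12 values were positive, and the median fold change was 0.54 on the log2 scale. The 7 are 58.3% of the family, beside 21.9% of all tested genes called higher. The summed level was 864, 853.5 and 945 FPKM in the glands and 1747, 1312 and 1048 FPKM in the tumours. Every tumour lay above every gland, the ratio of means was 1.54, and it was 1.33 without tumour 1 and 1.72 without tumour 3, so the tumours differed among themselves by more than the glands did.

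**Figure D2:**
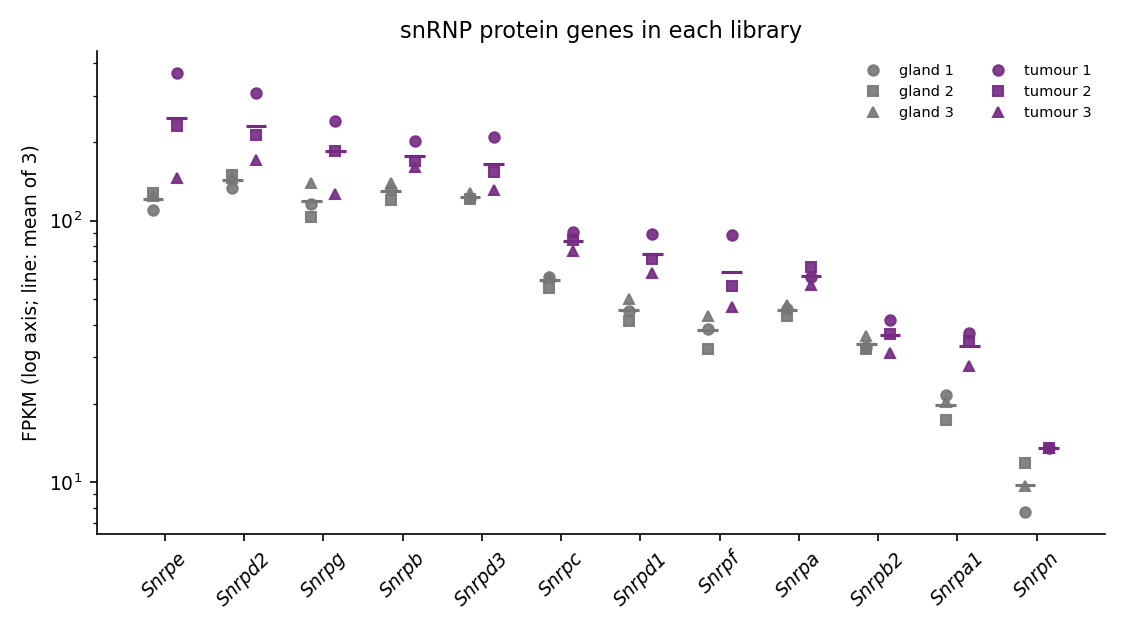
FPKM of the 12 Snrp genes in each library on a log axis, glands in grey and tumours in purple, with a line at the mean of each group of 3. Tumour 1 (circle) is the highest tumour for 10 of the 12 genes and tumour 3 (triangle) the lowest for 11.

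Snrpe, which encodes the Sm protein E, had the largest fold change of the 51 genes and the widest spread. It was at 110.1, 127 and 124 FPKM in the glands and 368, 229.6 and 145 FPKM in the tumours, so tumour 1 was 2.53 times tumour 3. The change was 0.93 ± 0.31 (SE), with an adjusted p of 0.0459 by limma, close to the threshold in spite of its size. Of the 6 fits with 1 library left out, the call remained in 1, without tumour 3. Without glands 1, 2 and 3 and tumours 1 and 2 in turn its adjusted p was 0.117, 0.0906, 0.105, 0.061 and 0.109 by limma, within a range of 0.00214 to 0.368 over its alternatives.

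Snrpd1 and Snrpd2 encode Sm proteins D1 and D2. Snrpd1 was at 45.2, 41.3 and 50.3 FPKM in the glands and 88.8, 71.3 and 62.8 FPKM in the tumours, a change of 0.68 ± 0.15 with an adjusted p of 0.0102 by limma. Snrpd2 was at 133, 149 and 146 FPKM against 308, 212 and 170.1 FPKM, a change of 0.64 ± 0.21 with an adjusted p of 0.045 by limma. Snrpd2 lost the call without gland 1, 2 or 3 or tumour 2, at 0.123, 0.0868, 0.106 and 0.0945, within a range of 0.00405 to 0.368.

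Snrpb, which encodes Sm proteins B and B′, was at 130.5, 120.0 and 139.6 FPKM in the glands and 202, 169 and 159.9 FPKM in the tumours. It rose by 0.44 ± 0.13, with an adjusted p of 0.0275 by limma. The call was lost without gland 1, 2 or 3 or tumour 2, at 0.0816, 0.0849, 0.0585 and 0.0663, within a range of 0.00258 to 0.16. Its relative Snrpn, an imprinted gene best known from brain, was at 7.70, 11.9 and 9.68 FPKM against 13.5, 13.6 and 13.5 FPKM. Snrpn shares its locus with Snurf on the same strand and did not pass, with an adjusted p of 0.0518 by limma, and passed without gland 2, at 0.0219, within a range of 0.0153 to 0.506.

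Other Sm genes with a high level in tumour 1 did not pass. Snrpg was at 115.5, 103 and 139.5 FPKM in the glands and 240.4, 185 and 127 FPKM in the tumours, and tumour 3 lay inside the gland range. Snrpd3 was at 122, 120.5 and 128 FPKM against 208, 153 and 130.5 FPKM. Snrpf, at 38.7, 32.4 and 43.2 FPKM against 88.2, 56.2 and 46.7 FPKM, had a fold change of 0.69 ± 0.24. Their adjusted p were 0.0891, 0.118 and 0.0535, and without tumour 3 all 3 passed, at 0.00927, 0.0246 and 0.0165 by limma. Over the alternatives the ranges were 0.00743 to 0.271, 0.00943 to 0.425 and 0.0037 to 0.218.

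Among the proteins particular to 1 snRNP, Snrpa1, a U2 protein, was at 21.5, 17.4 and 20.2 FPKM in the glands and 37.2, 34.8 and 27.9 FPKM in the tumours. It rose by 0.72 ± 0.14, with an adjusted p of 0.00648 by limma. Snrpc, for the C protein of U1, which helps U1 hold the start of the intron, was at 61.1, 55.2 and 60.9 FPKM against 90.7, 84.4 and 76.3 FPKM, a change of 0.49 ± 0.11 with an adjusted p of 0.00915 by limma. Snrpa, for the A protein of U1, was at 46.1, 43.3 and 47.5 FPKM against 61.0, 66.3 and 56.8 FPKM, a change of 0.42 ± 0.10 with an adjusted p of 0.0146 by limma. Snrpa lost the call without gland 1 or tumour 2, at 0.0531 and 0.0601, within a range of 0.00101 to 0.132. Snrpb2, the partner of Snrpa1 on U2, had groups that overlap, 33.0, 32.5 and 36.3 FPKM against 41.8, 36.9 and 31.3 FPKM, and an adjusted p of 0.557 by limma.

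Tumour 1 was the highest tumour in 10 of 12 Snrp genes, whereas tumour 3 was the highest in 13 of 20 Hnrnp genes and 6 of 9 Sf3 genes, and tumour 1 the lowest in 11 and 6 of these. Over all tested genes tumour 1 was the highest in 31.7%, tumour 3 the highest in 40.7%, tumour 1 the lowest in 44.1% and tumour 3 the lowest in 39.4%, so the Hnrnp and Sf3 counts lean the same way as the background, and the difference between families was not tested. The median ratio of tumour 1 to tumour 3 was 1.38 for Snrp, 1.03 for Srsf, 0.899 for Hnrnp and 0.815 for Sf3 genes. Transcript length moved with it, with medians of 1108, 1877, 2396 and 3222 bases for the same families. Across the 51 genes the Spearman correlation between length and the log2 difference of tumour 1 and tumour 3 was -0.53, and across 12864 tested genes with a length it was -0.41; both are descriptions, since all points share the same libraries. Tumour 3 also stood apart in cell type markers, with summed basal epithelium markers at 117 FPKM beside 330 and 312 FPKM in tumours 1 and 2, fibroblast markers at 161 beside 434 and 526 FPKM, and macrophage and granulocyte markers at 214 beside 490 and 417 FPKM. The part of these markers and of transcript length in the difference between the tumours was not tested.

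**Figure D3:**
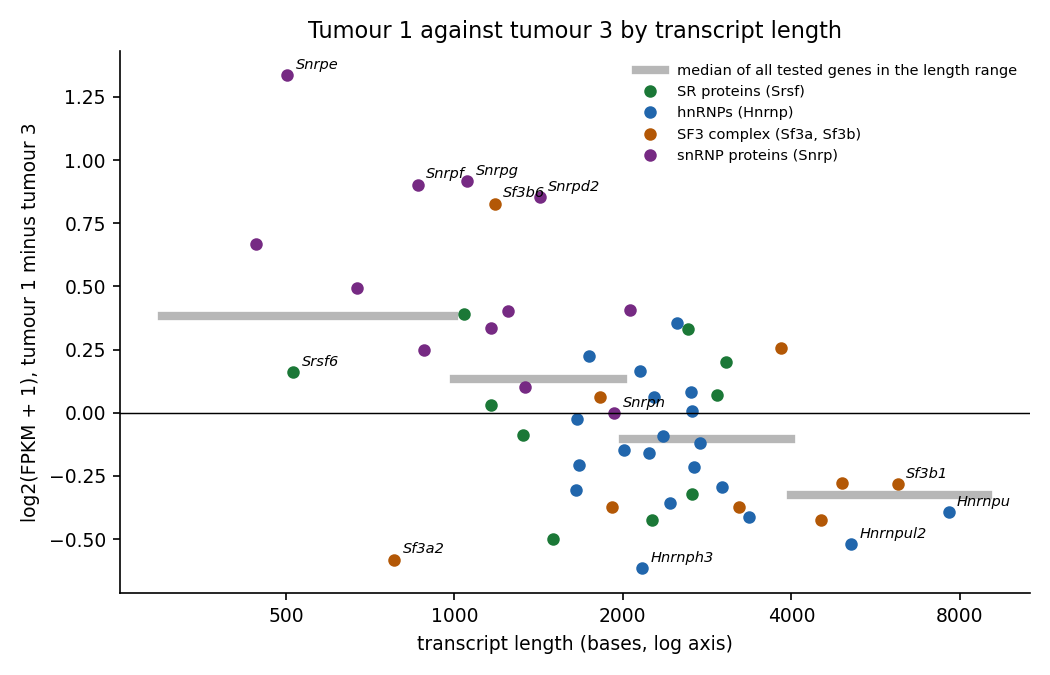
Difference between tumour 1 and tumour 3 in log2(FPKM + 1) for the 51 genes against transcript length in bases on a log axis, coloured by family. Grey bars are the medians of all tested genes in 4 length ranges, from 0.384 for the shortest to -0.326 for the longest.

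In transcripts of up to 1000 bases the median difference between tumours 1 and 3 was 0.38 for all 1865 genes and 0.49 for the 7 members. Between 1000 and 2000 bases it was 0.13 for all genes and 0.06 for 17 members, between 2000 and 4000 it was -0.10 and -0.11 (22 members), and above 4000 it was -0.33 and -0.39 (5 members). Sf3a2, at 781 bases by the definition used here, went against this, with tumour 1 at 0.661 times tumour 3. That length need not be the length of its main transcript, so Sf3a2 may belong to another range. For the difference between tumour and gland means the Spearman correlation with length was -0.39 across the 51 genes and -0.04 across all genes. Within each length range the members' median for tumour minus gland was positive, at 0.55, 0.44, 0.31 and 0.36 from the shortest to the longest, beside 0.06, 0.02, 0.01 and -0.03 for all genes.

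Removal of a trend on transcript GC content and length from each library raised the count of members called higher from 21 to 38, with 20 of the 21 kept. The same step called 4528 of all genes higher and 2769 lower, beside 2933 and 3090 without it, and moved the median of all genes to 0.15 on the log2 scale, against which the members' median of 0.50 is to be read. The definition of transcript length was settled after this relation had been seen. With the longest coding transcript of each gene the correlations of length with the difference between tumours 1 and 3 were -0.45 for the 51 genes and -0.43 for all genes, those with tumour minus gland were -0.43 and -0.05, and 40 members were called higher. With the median over all coding transcripts, incomplete ones included, they were -0.50 and -0.26 between the tumours and -0.29 and -0.05 for tumour minus gland, and 38 were called.

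Ratios within a library were taken for 10 pairs of related genes. Hnrnpd to Hnrnpdl, 2 genes for proteins that bind AU-rich RNA, was 0.364, 0.369 and 0.307 in the glands and 0.438, 0.457 and 0.468 in the tumours. Srsf3 to Srsf7 was 1.25, 1.29 and 1.23 in the glands and 1.42, 1.42 and 1.48 in the tumours, and Srsf2 to Srsf10 went from 3.34, 3.23 and 3.10 to 3.43, 3.62 and 4.21. In these 3 pairs all tumours lay above all glands. Srsf1 to Srsf9 moved the other way, from 1.12, 1.10 and 1.17 to 1.08, 0.997 and 1.05. The remaining 6 pairs overlapped, among them Snrpn to Snrpb, at 0.059, 0.0988 and 0.0694 in the glands and 0.067, 0.0802 and 0.0847 in the tumours. No test was run on the ratios and no other pairs were taken for comparison, so their separation is described only. Among single tested genes, 29.3% had every tumour above every gland and 29.0% every tumour below. The ratios do not show which partner moved.

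Splicing genes outside the 4 families were taken from 9 lists, of which 163 genes were tested. Of these 49 rose and 8 fell, 30.1% and 4.91%, beside 21.9% and 23.1% of all tested genes, with a median fold change of 0.26 on the log2 scale. The count of 49 was 29 without gland 1 or gland 2, 28 without gland 3 and 26 without tumour 2. In those 4 fits the share called higher was 17.8%, 18.0%, 17.2% and 16.0% of the listed genes and 16.0%, 16.9%, 15.4% and 15.9% of all tested genes, so it lay near the background.

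**Figure D4:**
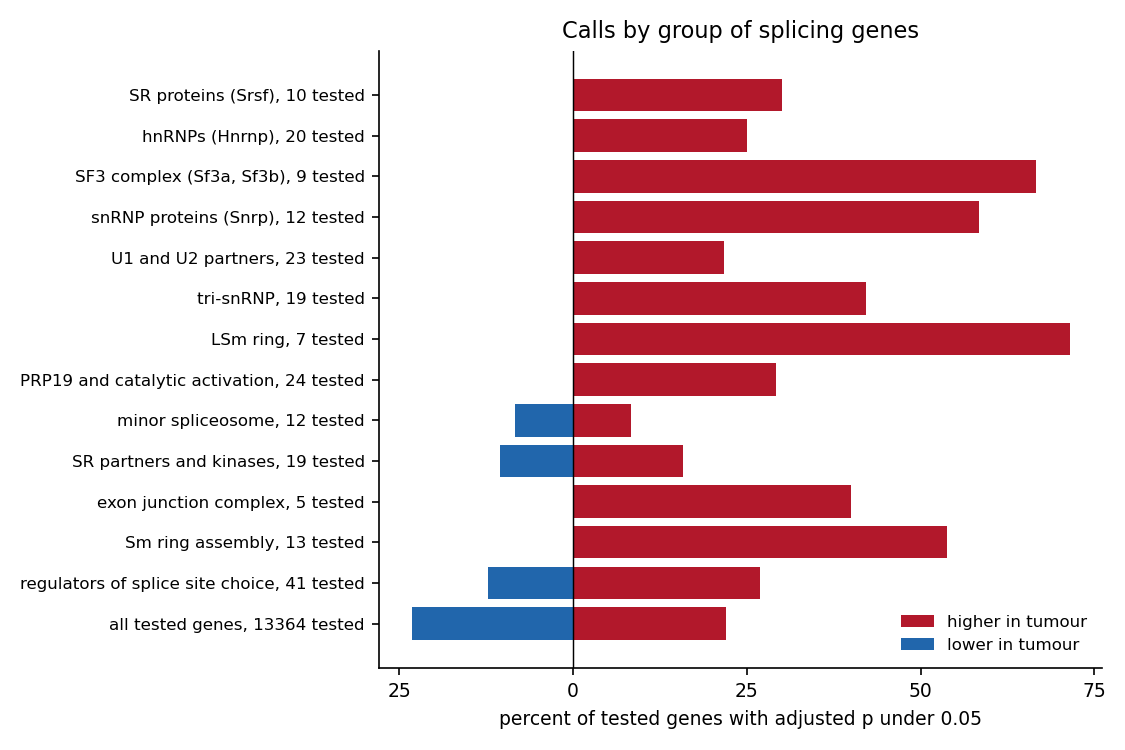
Percent of tested genes with an adjusted p under 0.05, higher in tumour to the right and lower to the left, for the 4 families, for 9 lists of other splicing genes and for all 13364 tested genes. Lower genes appear only in 3 of the lists and in the bar of all genes.

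Several lists of core parts held only genes that rose among those that passed, with shares of 71.4% for the LSm ring, 53.8% for Sm ring assembly, 42.1% for the tri-snRNP, 40.0% for the exon junction complex, 29.2% for PRP19 and catalytic activation and 21.7% for the partners of U1 and U2, the last equal to the background to within 1 percentage point. In the ring of 7 LSm genes, the Sm-like proteins of the U6 snRNP, 5 rose, led by Lsm2, from 26.7 ± 0.87 to 44.1 ± 4.0 FPKM (SD, n = 3). Of 19 genes of the tri-snRNP, which brings U4, U5 and U6, 8 rose, among them Usp39 with 13.1 ± 1.35 against 22.1 ± 0.53 FPKM and the U5 GTPase gene Eftud2 with 26.4 ± 1.53 against 40.9 ± 3.06 FPKM. Of 13 genes for the assembly of Sm rings 7 rose, with Smn1 at 17.3 ± 0.81 against 28.4 ± 0.96 FPKM and the arginine methyltransferase gene Prmt5 at 26.0 ± 0.44 against 35.6 ± 1.97 FPKM. Their adjusted p were 0.00188, 0.00221, 0.00329, 0.00142 and 0.00858 by limma, and all 5 kept the call whichever library was left out.

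Among 23 partners of U1 and U2, 5 rose, including U2af1, which reads the AG at the end of the intron, from 52.2 ± 2.02 to 84.0 ± 5.27 FPKM, and Puf60, from 62.7 ± 2.64 to 95.7 ± 3.29 FPKM. Their adjusted p were 0.00161 and 0.00205 by limma. Ddx5, an RNA helicase gene, was the most abundant of this list that did not pass, with 244 ± 21.9 against 230.3 ± 20.0 FPKM. Snrnp70, the gene of the U1-70K protein, had overlapping groups, 88.8, 71.6 and 95.1 FPKM against 80.2, 116 and 115 FPKM. Of 24 genes of PRP19 and catalytic activation 7 rose, with Bcas2 at 37.2 ± 1.22 against 59.7 ± 4.57 FPKM, and of 5 exon junction complex genes 2 rose, Rbm8a and Eif4a3.

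Genes that fell were found in 3 lists. Of 41 tested regulators of splice site choice 11 rose and 5 fell, 26.8% and 12.2%, and 10 more were under the filter. Those that rose included Esrp1, Esrp2, Ptbp1 and Rbm47, with fold changes of 0.69, 1.17, 0.66 and 1.36 on the log2 scale. Their adjusted p were 0.00171, 0.00281, 0.00733 and 0.0082 by limma. The 4 genes described next had the smallest p of the list, and all 4 fell. Mbnl1, of the muscleblind family that acts in muscle and other differentiating tissue, was at 53.1, 46.0 and 55.2 FPKM in the glands and 21.0, 19.7 and 13.4 FPKM in the tumours. Qk, whose protein quaking acts in glia and in mesenchymal cells, was at 31.7, 37.1 and 33.9 FPKM against 13.6, 17.2 and 17.1 FPKM. Nova1, a neuronal regulator, was at 2.48, 3.42 and 3.0 FPKM against 0.167, 0.256 and 0.0225 FPKM. Rbm38 was at 21.8, 29.8 and 21.5 FPKM against 9.66, 10.1 and 10.4 FPKM. Fold changes were -1.48, -1.06, -1.79 and -1.18 on the log2 scale, with adjusted p of 0.000806, 0.000797, 0.000478 and 0.000918 by limma, and in all 4 every tumour was below every gland.

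Of 19 SR partners and kinases 3 rose and 2 fell, 15.8% and 10.5%, both below the background. The SR protein kinase genes Srpk3, known from muscle, and Srpk2 fell, Srpk3 from 2.30, 5.14 and 3.02 FPKM to 0, 0.567 and 0.0803 FPKM and Srpk2 from 11.1 ± 0.46 to 7.43 ± 0.97 FPKM. Their adjusted p were 0.0026 and 0.0139 by limma. Srpk2 kept the call in 3 of 6 fits with 1 library left out. On the list taken for the minor spliceosome, which removes a rare class of introns, 1 of 12 genes rose, Zcchc8, and 1 fell, Zrsr1. Either count is 8.33% of the list, below the 21.9% and 23.1% of all tested genes called higher and lower. Zcchc8 is counted as listed, but it is not an established part of that spliceosome. Zrsr1 went from 4.95 ± 0.28 to 3.35 ± 0.47 FPKM, with an adjusted p of 0.0342 by limma. Zrsr1 kept the call in 1 of 6 such fits.

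Markers of cell types differed between gland and tumour alongside all of this. The 14 luminal epithelium markers all rose, their sum going from between 1403 and 1490 FPKM in the glands to between 3619 and 4022 FPKM in the tumours, and all 12 cell division genes rose, from between 129 and 161 to between 519 and 532 FPKM. The 14 adipocyte markers all fell, from between 13230 and 15170 to between 114 and 448 FPKM, as did 8 of 8 fibroblast and 7 of 7 endothelial markers. In T cells 6 of 9 and in B cells 1 of 9 markers fell, and B cell sums were 152, 23.8 and 158 FPKM in the glands and 44.6, 37.2 and 1.13 FPKM in the tumours. Basal epithelium markers fell in 6 of 10 and macrophage and granulocyte markers in 4 of 9, and 0 of 8 skeletal muscle markers passed in either direction. In bulk tissue, more cells of a type and more RNA per cell cannot be told apart, and the part of these markers in the changes of the splicing genes was not tested.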

How the data were processed

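Total RNA of 3 mammary glands and 3 mammary tumours was sequenced. Per the submitters' processing notes, HISAT2, StringTie and the build mm10 were used, with no versions or roles given. The deposited table names no unit; its values were taken as FPKM made by the authors, since they are not whole, never negative and sum to different totals. No source used here gives depth, strandedness or the authors' annotation, so no counting error enters. Of 311 to 556 pairs of low values per library, 18 to 53 lay on the commonest ratio to tumour 1, too few to recover reads.

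Genes that averaged 1 FPKM or more were tested on log2(FPKM + 1) with limma 3.58.1 (R 4.3.3; eBayes with trend; 2-sided), with no block. Glands and tumours with the same number had correlations of their deviations of -0.054, -0.118 and -0.124 across genes and were not treated as pairs. The test was run on simulated data with changes larger than any among the members, so it does not show how well changes of their size are found. Symbols were placed with GENCODE M21 (GRCm38); 95.6% of the table's symbols and all 52 members matched 1 gene. Transcript length is the lower median over a gene's coding transcripts of the basic set. Near-identical copies are transcripts of other genes with at least 95% identity over 300 bases on either strand, so an overlap on the other strand can count as a copy. Overlaps and copies are given above for some named genes only. Others with an overlap on the other strand include Hnrnpk (Rmi1), Snrpa (BC024978), Sf3b4 (Gm17690), Snrpd3 (Gucd1) and Snrpf (Ccdc38). The near-identical sequence that Snrpf shares with Ccdc38 may be their overlap. Snrpc and Snrpd2 have 3 and 2 near-identical pseudogenes. Promoter windows came from RefSeq; the condition that a printed stretch hold no annotated exon was added last and replaced Sf3a3 by Sf3b1 and left out Snrpe.

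The members, lists, motifs and tests were chosen with earlier results of these data known. In each family, the genes past the threshold with the smallest p or largest changes, the 3 most abundant that did not pass, any under the filter and the members of the 10 pairs could be named; members just outside the threshold, or whose call changed when 1 library was left out, were added after their values were seen. In each other list, the genes named are a subset of up to 4 past the threshold by p and the most abundant that did not pass. The number of those that did not pass was reduced after their values were seen, which left out some whose sign changes between settings. Among the regulators of splice site choice, the genes named that rose were added after their values were seen. Alternatives were a pseudocount of 0.1, no filter, a mean of at least 5 FPKM, quantile, median-of-ratios and common-sum scaling, a replicate block, each library or glands 1 and 3 left out, tumours 1 and 2 averaged, and a loess trend (span 0.5) on GC content and length removed. The other definitions of length were added after seeing the data.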

Additional observations from a re-analysis of the deposited data

How the results depend on the processing

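Across the alternatives the members called higher ranged from 0 to 40 of 51, and 0 to 1 were called lower. The count called higher was 9 with the replicate block, 0 without glands 1 and 3, 38 with the GC and length trend removed, 40 with the longest transcript and 38 with all coding transcripts used for that trend, and 10 to 25 with 1 library left out. With the block that is 17.6% of the members, near the 16.1% of all genes (2147) called higher in the same fit; with the trend removed by the basic set it is 74.5% beside 33.9%. Without a filter, 1 member, Srsf12, was called lower, and 0 to 1 with 1 library left out. The replicate block rests on numbers that do not pair the libraries, and no gland correlated best with the tumour of its number. For all genes, those called higher numbered 760 without glands 1 and 3, and 4528 and 4643 with the trend removed by the basic set and the longest transcript; those called lower numbered 1864 at a mean of at least 5 FPKM and 1098 without glands 1 and 3. For the other splicing lists, 29 were called higher with the replicate block, 17.8% beside 16.1% of all tested genes. With the trend removed by the 3 definitions of length the counts were 84, 88 and 81. As shares these were 51.5%, 54.0% and 49.7%, beside 33.9%, 34.7% and 32.4% of all tested genes. Leaving 1 library out gave 26 (16.0%, without tumour 2) to 58 (35.6%, without tumour 1), beside 15.9% and 21.9% of all tested genes. At a mean of at least 5 FPKM, 4 were called lower, 2.61% beside 19.1% of all tested genes. The tumour to gland ratio of class sums with 1 library left out ran from 1.168 to 1.250 for Srsf and 1.309 to 1.409 for Sf3, and the ratio of ratios from 0.919 to 1.204 for Snrpn to Snrpb and 1.240 to 1.354 for Hnrnpd to Hnrnpdl. Quantile normalization moved the median of all genes to 0.12 on the log2 scale and the members' to 0.28, with 20 called higher, and 17 were called with tumours 1 and 2 averaged.

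Values that changed sign, none of them called in either setting, were small. Under quantile normalization they were -0.0126 for Hnrnpa1, 0.0731 for Hnrnpr, -0.0901 for Hnrnpul1, -0.0332 for Hnrnpul2, -0.0002 for Snrpb2 and -0.0147 for Srsf6. With a common sum they were -0.0447 for Hnrnpa1, -0.0664 for Hnrnpul1 and -0.0248 for Hnrnpul2, and with median-of-ratios scaling -0.0089 for Hnrnpul1. With tumours 1 and 2 averaged, Hnrnpa1 was at -0.0095. Without glands 1 and 3 the values were 0.0566 for Ddx5, 0.1182 for Hnrnpdl, 0.1002 for Hnrnpr and 0.0347 for Srsf4. With the trend removed by the basic set, the longest transcript and all coding transcripts in turn, they were 0.0808, 0.0728 and 0.0568 for Hnrnpdl, 0.0894, 0.2271 and 0.1314 for Hnrnpr, 0.0918, 0.0778 and 0.0973 for Srsf4, 0.0841, 0.1066 and 0.1097 for Gemin7 and 0.0404, 0.0645 and 0.0281 for Zcrb1, and Ddx5 was at 0.0486 with all coding transcripts. With 1 library left out the ranges were -0.0306 to 0.0822 for Hnrnpa1, -0.1330 to 0.0082 for Hnrnpdl, -0.0750 to 0.0286 for Hnrnpr, -0.0874 to 0.1292 for Hnrnpul1, -0.0684 to 0.1916 for Hnrnpul2, -0.2008 to 0.0107 for Srsf4, -0.2179 to 0.1371 for Gemin7 and -0.1774 to 0.1075 for Zcrb1. The cause of these changes was not tested, beyond the fewer samples of the fits that leave libraries out. With 3 libraries a group, calls near the threshold are unstable, and the unknown depth gives no error for single values.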
